A study of Mus musculus with 18 samples.

Results

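The comparison described here is between mouse cells harvested at day 12 (D12) of cardiac differentiation after an early pulse of GLI1 and cells of the same line and day that had no pulse. Its members were the 2 pulsed and the 2 control libraries of D12, picked by their labels, 4 of the 18 samples of this RNA series. The series holds mouse embryonic stem cells of the GLI1-FTA line, on the A2Lox.cre background, differentiated toward cardiomyocytes and sampled at days 5, 6, 8 and 12. Polyadenylated RNA was sequenced. Pulsed cells had received 500 ng/ml doxycycline for 24 hours, from day 5 to day 6, and were then washed and differentiated on to the day of harvest; control cells carry the same transgene and are labelled untreated. Doxycycline itself and GLI1 induction therefore cannot be told apart. All cells are of 1 line. No label tells whether libraries of a group are separate cultures, and the p-values rest on a spread between libraries that could be technical alone. The control libraries bear the numbers 9 and 19 and the pulsed libraries 10 and 20, and these numbers name them below.

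GLI1 is a zinc finger transcription activator at the end of the Hedgehog pathway. When a Hedgehog ligand binds the receptor Patched, Smoothened is released and GLI proteins switch on targets that include Gli1 itself, the receptor Ptch1 and the ligand-binding inhibitor Hhip. In the embryo, Hedgehog signalling acts on second heart field progenitors, which add to the poles of the heart tube before they become muscle. The pulse was given at a progenitor stage, and the D12 libraries show which transcripts differed long after it had ended.

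The D12 libraries held 18470785 to 22301324 counts each and 15889 to 16425 genes with a count. Levels are given below in CPM, read counts scaled to library size with trimmed mean (TMM) factors, and effects as log2 fold changes, pulsed over control, with their standard errors (SE). A gene was called where its adjusted p lay under 0.05. With 2 against 2 libraries an exact permutation test cannot give a two-sided p below 0.333, so all tests rest on models fitted across all genes. The libraries matched their label in that all 8 cardiomyocyte markers checked (Tnnt2, Actn2, Myh6, Myh7, Ryr2, Nkx2-5, Myl7 and Myl2) were present. Their summed level was 3808 CPM in control 9, 9691 CPM in control 19, 4843 CPM in pulsed 10 and 2395 CPM in pulsed 20. The groups overlapped, and the controls differed from each other more than control 9 did from pulsed 10. Markers of fibroblasts and smooth muscle summed to more, between 13100 and 16707 CPM, so the cultures were mixed. In such bulk samples fewer cells of a type and less RNA per cell cannot be told apart. Pulsed 20 stood apart: on the first principal component of the 4 libraries, which held 58.9% of the variance, it scored 55.7 against -5.86 for pulsed 10, -12.9 for control 9 and -37.0 for control 19.

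Gli1 itself was as low in pulsed as in control cells at D12. It stood at 0.808 CPM in control 9, 0.902 CPM in control 19, 0.795 CPM in pulsed 10 and 1.12 CPM in pulsed 20. The groups overlapped and all 4 libraries were low. At D6, at the end of the pulse, Gli1 had risen by a log2 fold change of 6.02 ± 0.59 (edgeR quasi-likelihood test, adjusted p = 4.31e-05, n = 3 against 3), and at D12 the estimate was 0.18 ± 0.98. The drop between these effects, -5.84 ± 1.18, passed the edgeR interaction test (adjusted p = 0.0415), and was lost without any one of the 4 libraries (adjusted p 0.109 to 0.285). Hprt, the purine salvage gene next to which A2Lox lines carry their inducible cassette, followed the same course. Its level at D6 went from 5.19 CPM in controls to 43.2 CPM in pulsed cells. At D12 it stood at 1.62 and 4.40 CPM in controls 9 and 19 and at 4.15 and 1.65 CPM in pulsed 10 and 20, with overlapping groups and an interaction of -3.12 ± 0.57 (edgeR adjusted p = 0.0212). That call was lost without control 19 (adjusted p = 0.197) or without pulsed 20 (0.127).

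The canonical Hedgehog targets called at D6 were not called at D12, as no gene was, and Ptch1 lay at control levels. Of the 17 tested genes of the target list, 10 were called higher at D6, where 449 of all 14892 genes (3.02%) were. None was called at D12, where 0 genes (0%) were, so the lost calls do not set the targets apart. Gli1, the gene that the pulse induces, is 1 of the 17 and 1 of the 10, and its rise at D6 was set by the design. Ptch1, the receptor that restrains the pathway, had reached 899 to 1087 CPM in pulsed cells at D6 against 34.5 to 73.8 CPM in controls. At D12 Ptch1 stood at 49.6 and 43.5 CPM in controls and 41.5 and 44.6 CPM in pulsed cells. These ranges overlapped. The difference between the effects at the 2 days was -4.36 ± 0.51 (edgeR interaction, adjusted p = 0.00194), and it was called without each D12 library in turn. Foxl1, a forkhead factor of Hedgehog-responsive mesenchyme, also had a lower effect at D12 than at D6. It measured 51.3 to 101 CPM in pulsed cells at D6, and 0.738 and 1.30 CPM against 0.657 and 0.106 CPM in controls at D12. These D12 groups did not overlap, where 17.9% of all genes were higher in both pulsed libraries. Pulsed 10 and control 9 lay close together, at low counts. Its D12 estimate was 1.40 ± 0.67, not called, with an interaction of -5.11 ± 0.88 (edgeR adjusted p = 0.0129; 0.630 without control 9, 0.0626 without pulsed 10 and 0.0619 without pulsed 20).

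Some targets kept a higher estimate at D12 without passing the test. Of those called at D6, Hhip had a D12 estimate of 1.08 ± 1.05, at 0.657 and 0.424 CPM in controls and 1.14 and 1.16 CPM in pulsed cells. Foxf1a, Osr1, Foxa2 and Foxf2 had estimates of 0.91 ± 1.26, 1.05 ± 0.79, 2.95 ± 1.67 and 4.24 ± 1.66. Ptch1 and Bcl2, also called at D6, lay below 0 (Bcl2 -0.29 ± 0.24). The list's median D12 effect was 0.82, against -0.00 over all genes tested, and 8 of its 17 genes were higher in both pulsed libraries than in both controls, where 17.9% of all genes were. The median was 0.262 and 0.307 for pulsed 10 over controls 9 and 19, and 0.745 and 0.968 for pulsed 20. Foxd1 and Foxf2, forkhead factors of stromal and gut mesenchyme, were high in 1 library only. Foxd1 measured 0.101 and 0.265 CPM in controls, 0.398 CPM in pulsed 10 and 7.33 CPM in pulsed 20. Foxf2 measured 0.101 and 0.265 CPM in controls, 0.170 CPM in pulsed 10 and 6.79 CPM in pulsed 20. Of 15 pathway components 14 had an estimate above 0 and 2 were higher in both pulsed libraries, with a median of 0.12, which was -0.125 for pulsed 10 over control 9 and 0.463 for pulsed 20 over control 19: the transducer Smo stood at 120 and 99.1 CPM in controls and 114 and 161 CPM in pulsed cells, and the co-receptor Cdon, the most abundant component, at 146 and 114 against 122 and 140 CPM. Both overlapped between groups.

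**Figure D1:**
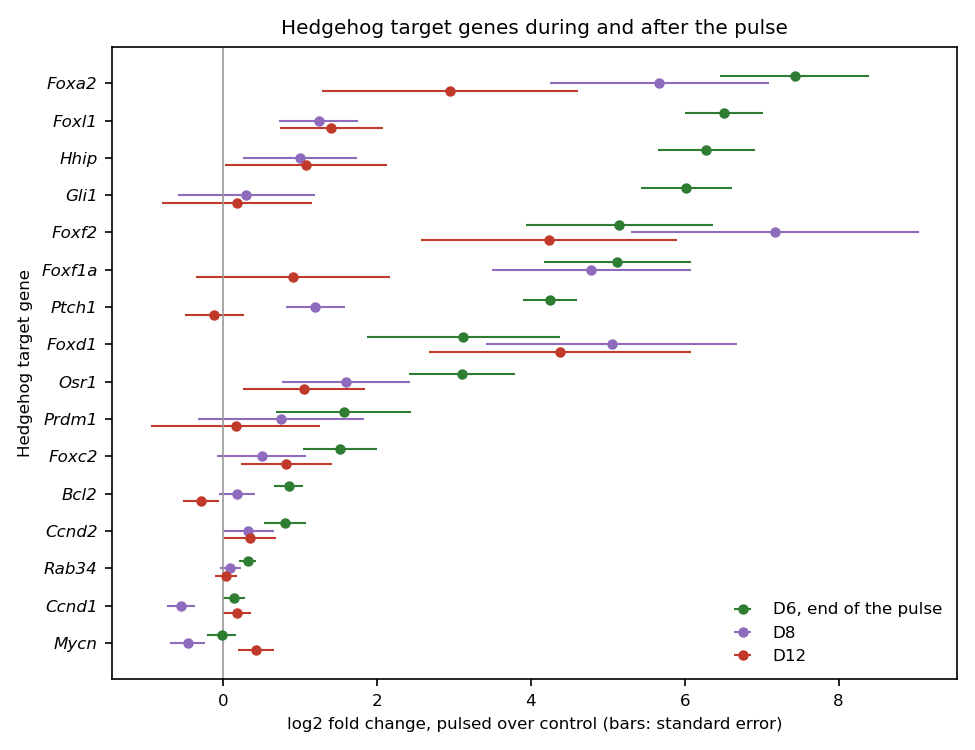
The log2 fold change of genes of the Hedgehog target list, pulsed over control, at D6, D8 and D12, with bars of 1 standard error. Gli1, the gene induced by the pulse, and Ptch1 lie far right at D6 and near 0 at D12, while Foxf2, Foxd1 and Foxa2 have wide bars at D12.

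No gene was called at D12 by the edgeR quasi-likelihood test. The smallest adjusted p was 0.326, for 2810030E01Rik, a gene known by its cDNA number, and 840 genes (5.64%) had an unadjusted p under 0.05, 633 of them higher in pulsed cells (4.25%) and 207 lower (1.39%). Other tests on the same counts called a few genes, all of them higher. DESeq2 called 14 (0.0940%), edgeR's exact test 19 (0.128%) and limma-voom 1 (0.00672%), and 12 were called by both DESeq2 and the exact test. These 14 and 19 fell to 0 when pulsed 20 or control 19 was left out, and to 5 and 1 without control 9, while they numbered 258 and 152 without pulsed 10, where the quasi-likelihood test called 8. The 21 genes that either of the first 2 called are named here because of those calls, after their values were seen, and 18 of them were higher in pulsed 20 than in pulsed 10. For none of them did the pulsed and control libraries overlap, where 17.9% of all genes were higher in both pulsed libraries. The calls that picked them used the same values, so this is no separate support.

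Several of the 21 are transcription regulators. Six2, a homeobox factor of kidney, head and second heart field progenitors, was at 0 CPM in control 9, 0.106 CPM in control 19, 1.42 CPM in pulsed 10 and 14.6 CPM in pulsed 20. Both pulsed libraries were above both controls, and pulsed 20 was far above pulsed 10. The ratio of the summed counts, 352 against 2, was 170 (95% interval 46.7 to 1410, exact binomial, counting error only), and the DESeq2 adjusted p was 6.56e-04. Eya1, the phosphatase partner of Six2, measured 6.21 and 4.61 CPM in controls and 19.9 and 44.7 CPM in pulsed cells, a fitted effect of 2.58 ± 0.65 (DESeq2 adjusted p = 0.0309, edgeR 0.492). Pulsed libraries lay above the controls for both partners, which were picked by calls on these same values. Nkx2-3, a homeobox factor of pharyngeal floor and gut mesenchyme, measured 0.0505 and 0 CPM in controls, 0.511 CPM in pulsed 10 and 11.2 CPM in pulsed 20, or 259 counts against 1, a ratio of 250.4 (44.5 to 9927; DESeq2 adjusted p = 0.0309).

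Six2 and Nkx2-3 were also called higher at D6 (edgeR adjusted p = 0.0314 and 0.0166), so their D12 gap followed an earlier rise. At D8 Six2 stood at 0.833 and 10.9 CPM in the 2 pulsed libraries and at 1.24 and 0.741 CPM in controls, and Nkx2-3 at 3.56 and 25.7 CPM against 0.133 and 0.0872 CPM. One pulsed library was therefore far above the other at D8 as well, for both genes. The D8 and D12 libraries are separate samples that no label ties together.

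The promoters of Six2, Nkx2-3 and Irx3, a homeobox gene described below, are shown because these regulators were higher in both pulsed D12 libraries, and the motif bound by GLI proteins can be looked for in them. Each runs from 250 bases before to 50 bases after the RefSeq start site on GRCm38.p6, 5′ to 3′ in the direction of transcription, and capitals mark the core letters CCACCC or their reverse complement GGGTGG, which lie inside the longer consensus GACCACCCA. They span chr17:85688205-85688504 (minus strand) for Six2, chr19:43612075-43612374 (plus strand) for Nkx2-3 and chr8:91801605-91801904 (minus strand) for Irx3.
Six2: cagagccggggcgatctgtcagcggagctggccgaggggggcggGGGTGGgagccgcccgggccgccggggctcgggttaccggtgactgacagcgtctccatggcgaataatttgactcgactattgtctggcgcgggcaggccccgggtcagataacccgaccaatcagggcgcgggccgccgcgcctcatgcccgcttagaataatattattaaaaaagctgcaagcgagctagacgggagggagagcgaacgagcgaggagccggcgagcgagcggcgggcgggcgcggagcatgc
Nkx2-3: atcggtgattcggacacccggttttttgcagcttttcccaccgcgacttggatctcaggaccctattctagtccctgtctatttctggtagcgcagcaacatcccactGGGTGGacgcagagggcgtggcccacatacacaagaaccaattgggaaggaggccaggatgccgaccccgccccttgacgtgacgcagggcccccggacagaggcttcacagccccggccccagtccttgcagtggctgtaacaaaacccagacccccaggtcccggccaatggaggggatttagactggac
Irx3: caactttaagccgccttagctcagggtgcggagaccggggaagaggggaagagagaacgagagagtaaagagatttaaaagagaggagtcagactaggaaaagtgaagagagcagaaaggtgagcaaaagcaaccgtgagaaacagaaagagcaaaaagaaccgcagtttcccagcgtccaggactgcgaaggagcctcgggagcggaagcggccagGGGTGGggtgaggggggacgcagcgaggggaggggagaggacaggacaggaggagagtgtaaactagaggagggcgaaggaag
Each promoter held 1 core match and no full consensus. Of the 21 genes, 13 had an entry in the RefSeq promoter table; 8 of these 13 (61.5%) held the core on either strand, against 9201 of all 27025 genes with an entry (34%), and 0 of 13 held the full consensus, against 78 of 27025 (0.289%). A match of so few letters is a description of the window and shows no binding.

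Other called genes encode secreted signals, receptors and enzymes. Moxd1, a monooxygenase-like protein of neural crest derivatives, measured 2.63 and 2.02 CPM in controls and 15.4 and 47.8 CPM in pulsed cells, an effect of 3.76 ± 0.73 (DESeq2 adjusted p = 3.08e-04). Sema3d, a secreted guidance cue of the outflow region and epicardium, measured 3.33 and 1.49 CPM in controls and 11.6 and 52.6 CPM in pulsed cells (DESeq2 adjusted p = 0.00999). In both genes pulsed 20 was highest and the controls lowest. Artn, a ligand of the GDNF family, measured 0.657 and 0.636 CPM in controls and 2.67 and 7.87 CPM in pulsed cells. Edn3, an endothelin ligand of neural crest, had nearly the same levels, 0.657 and 0.636 CPM against 2.67 and 6.88 CPM. Dio2, the deiodinase that activates thyroid hormone, measured 0.505 and 0.690 CPM against 4.94 and 7.64 CPM. For these 3 genes the controls lay close together and both pulsed libraries were several times higher. Rgs2, which damps G protein signals, measured 10.002 and 5.57 CPM against 30.9 and 48.1 CPM. Kcnh1, a voltage-gated potassium channel, Spock3, a matrix proteoglycan, and B4galnt4, a glycosyltransferase, had effects of 3.80 ± 0.72, 2.39 ± 0.48 and 1.58 ± 0.37.

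Several of the remaining genes were close to silent in controls. Myog, the skeletal muscle factor myogenin, was the gene that limma-voom called (adjusted p = 0.0216): it had 1 count in the controls and 84 in the pulsed libraries, at 2.21 and 2.01 CPM, a ratio of 81.2 (14.2 to 3245). Pulsed 10 and pulsed 20 were alike for this gene. The 3 skeletal muscle markers together summed to 0.0505 and 0 CPM in controls and 2.21 and 2.46 CPM in pulsed cells, Myog among them, and the part of such cells was not tested. Nefl, a neurofilament subunit, had no count in controls and 40 in pulsed cells, at least 12.9-fold higher if the controls are set to a limit of 3 counts in all. Adra1a, an alpha-1 adrenergic receptor, had none against 33, at least 10.6-fold higher. Mab21l1, a developmental gene of eye and face, measured 0.202 and 0.106 CPM against 3.29 and 7.33 CPM, and Doc2b, Dpysl4 and Fam150b had 3, 3 and 1 counts in controls against 69, 43 and 49. In every library outside the pulsed D12 group, Adra1a lay at or below 0.324 CPM, and Fam150b and Mab21l1 at or below 0.227 CPM. Like Myog, these genes passed the count filter through the pulsed D12 libraries alone. Their calls, ratios and bounds are therefore no support for a rise.

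**Figure D2:**
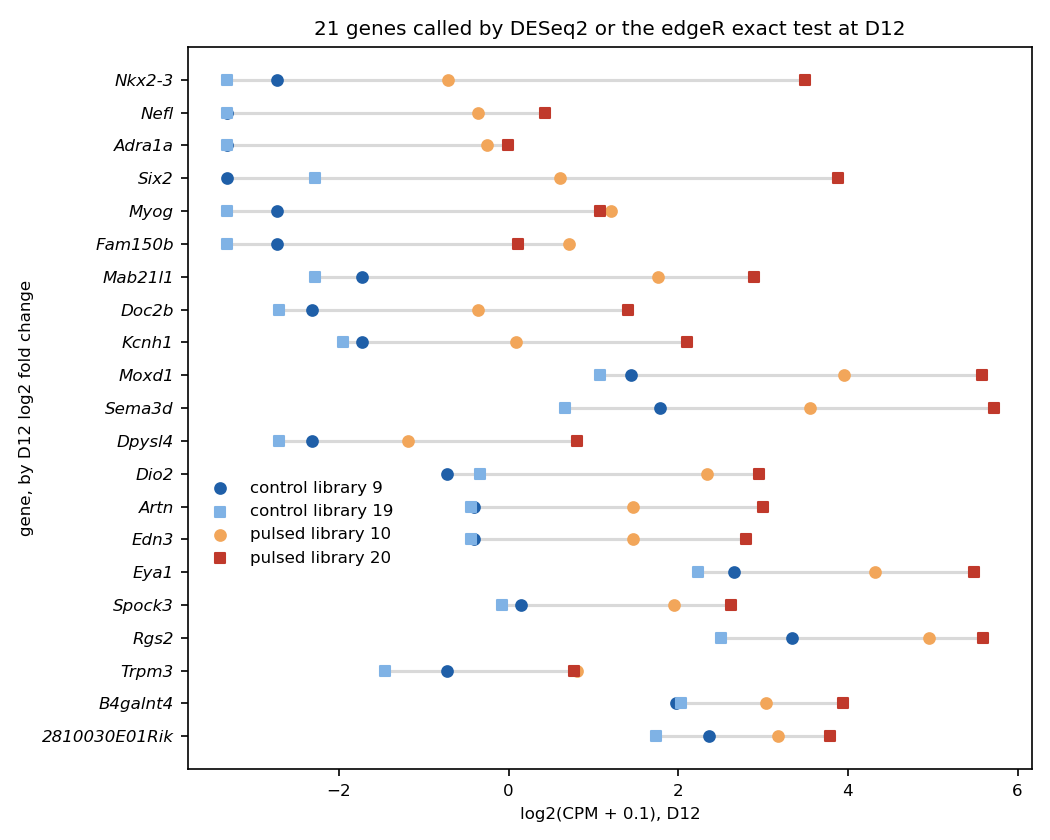
Level of the 21 genes called by DESeq2 or the edgeR exact test in each D12 library, as log2(CPM + 0.1), blue for controls and orange or red for pulsed libraries. Both pulsed libraries lie right of both controls in every row, and pulsed 20 lies furthest right for 18 genes. The genes were picked by calls on these same libraries.

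The comparison of the D12 effect with the D6 effect found genes whose difference between pulsed and control cells was not the same on the 2 days. By edgeR's interaction test 90 genes (0.604%) differed between the days: 14 (0.0940%) had a D12 effect above their D6 effect and 76 (0.510%) one below it. Of the 14, 10 had been called lower at D6 (1.12% of all genes) and 8 had a D12 estimate above 1. At D12, 10 were higher in both pulsed libraries than in both controls (17.9% of all genes). The interaction that picked the 14 uses the same values, so these counts are no separate support. The test called 2 genes higher and 10 lower when pulsed 20 was left out, 5 and 45 without control 19, 6 and 39 without control 9, and 12 and 40 without pulsed 10; these need not be the same genes.

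Tbx2, the T-box repressor that keeps atrioventricular canal and outflow tissue from forming chamber muscle, was the clearest case. At D6 it stood at 28.3 to 61.2 CPM in controls and 3.32 to 5.09 CPM in pulsed cells, a called fall. At D12 it stood at 68.5 CPM in control 9, 38.4 CPM in control 19, 115 CPM in pulsed 10 and 228 CPM in pulsed 20. The pulsed libraries were below the controls at D6 and above them at D12. The effects were -3.62 ± 0.47 and 1.68 ± 0.51, and their difference of 5.30 ± 0.70 was called (edgeR interaction, adjusted p = 0.00385), also without each D12 library in turn (adjusted p 0.0091 to 0.0325). The D12 effect alone was not called (edgeR adjusted p = 0.618), although Tbx2 is called in the authors' deposited table (log2 fold change 1.71, adjusted p = 2.47e-04). At D8 the pulsed libraries stood at 199 and 106 CPM against 73.8 and 63.5 CPM in controls.

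Irx3, a homeobox factor of the ventricular conduction system, took the same course at lower levels. It measured 12.7 to 14.4 CPM in D6 controls and 4.65 to 6.49 CPM in D6 pulsed cells. At D12 it measured 3.49 and 5.62 CPM in controls and 13.2 CPM in each pulsed library, whose values were alike. The difference of the effects was 2.77 ± 0.47 (edgeR interaction, adjusted p = 0.0129), which did not pass without control 9 (0.101), pulsed 10 (0.0506) or pulsed 20 (0.0636). Its neighbour in the same gene cluster, Irx5, measured 1.31 and 1.17 CPM in D12 controls and 5.91 and 4.42 CPM in pulsed cells.

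Trpm3, a cation channel, had the widest interaction of the 14, 5.89 ± 0.87 (edgeR adjusted p = 0.00683), and it was called without each D12 library in turn. Its levels were low: 19 counts in D6 controls against 1 in D6 pulsed cells, a ratio of 19.1 in favour of controls (3.04 to 795), and at D12 0.505 and 0.265 CPM in controls against 1.65 and 1.61 CPM in pulsed cells. Moxd1 (4.68 ± 0.92) and Spock3 (3.75 ± 0.63), described above, Lrrn2, a leucine-rich repeat membrane protein (2.37 ± 0.38), 2810030E01Rik (1.86 ± 0.29), 4930513N10Rik (2.37 ± 0.41) and Rgag4 (1.85 ± 0.36) were the others above 1.5. For Spry2, a feedback inhibitor of FGF signalling, Tgfb2, a TGF-beta ligand, Crip1, Fam122b and Amot the D12 estimate lay within 0.5 of 0, and all 5 had been called lower at D6. Of the 14, only Tbx2 and Trpm3 were still called without pulsed 20; for the other 12 the edgeR adjusted p then lay between 0.0524 and 0.250. Without control 9 it was 0.153 for Moxd1 and 0.0649 for Spock3, and without control 19 it was 0.232 and 0.0979.

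**Figure D3:**
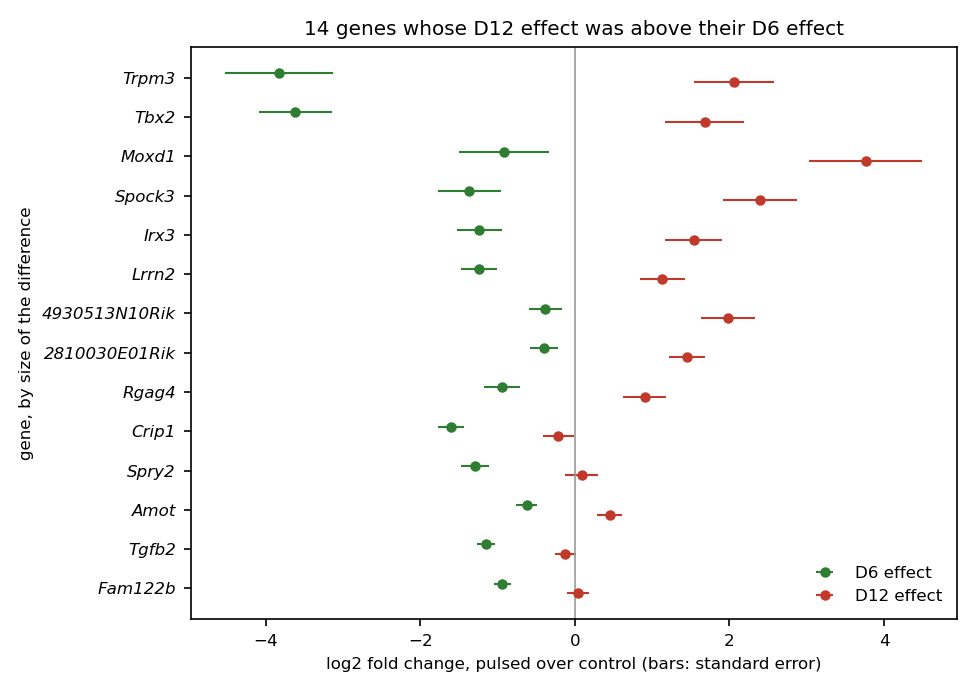
Effect of the pulse, as log2 fold change with bars of 1 standard error, at D6 and at D12 for the 14 genes whose D12 effect was above the D6 effect. The D6 points lie left of 0, and Trpm3 and Tbx2 show the widest distance between the points.

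**Figure D4:**
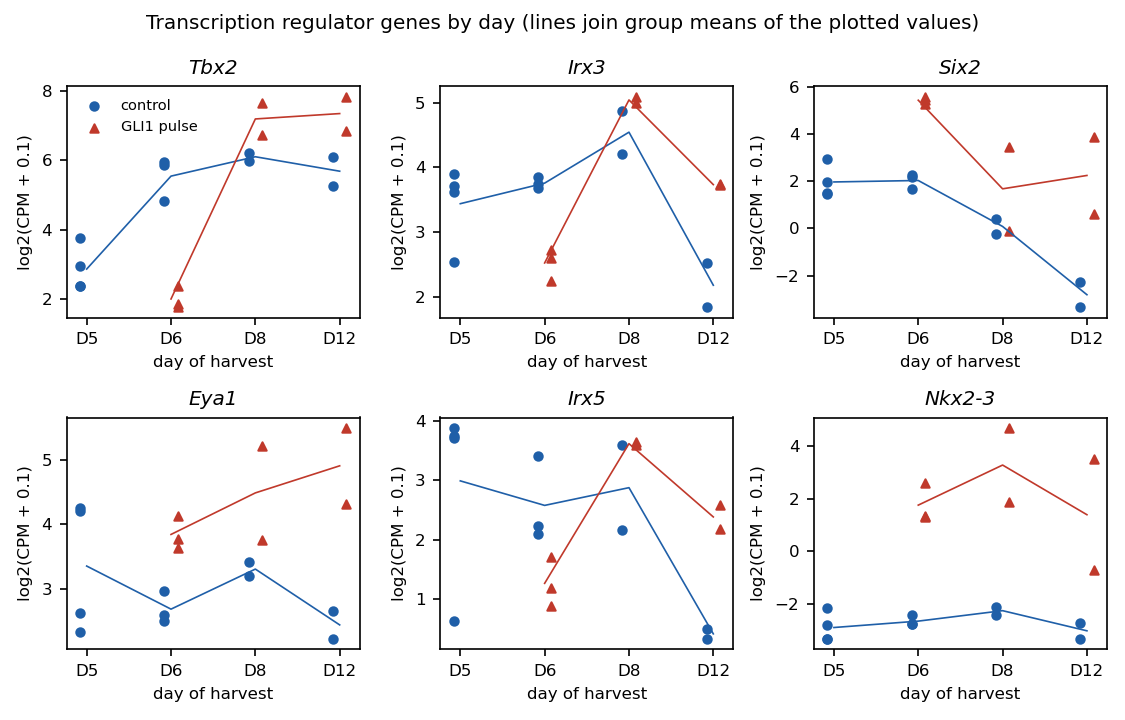
Level of 6 transcription regulator genes as log2(CPM + 0.1) in every library by day of harvest, with lines through the group means of these values; the first day has controls only. Tbx2 and Irx3 pulsed libraries lie below the controls at D6 and above them at D12, and for Six2 and Nkx2-3 the D8 and D12 pulsed libraries lie far apart from each other.

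All 76 genes with a lower D12 effect had been called higher at D6, and for 66 of them the D12 estimate lay within 0.5 of 0. Their D12 estimates ranged from -3.01 to 1.40. Over all genes the 10th and 90th percentiles of the D12 effect were -0.36 and 0.63. The interaction that picked the 76 uses the same D6 and D12 values, so these counts are no separate support. Kcnn3, a calcium-activated potassium channel, went from 35.5 to 46.7 CPM in pulsed cells at D6, against 0.978 to 1.91 CPM in controls, to 6.59 and 9.43 CPM at D12, against 7.32 and 4.19 CPM. The D12 groups overlapped (interaction -4.46 ± 0.40, edgeR adjusted p = 1.58e-04). The cardiac calsequestrin gene Casq2, whose product stores calcium in the sarcoplasmic reticulum, measured 13.95 to 22.9 CPM in pulsed cells at D6 against 0.698 to 1.21 CPM in controls. At D12 it measured 49.9 and 84.3 CPM in controls, 52.4 CPM in pulsed 10 and 13.0 CPM in pulsed 20, so only pulsed 20 was below the controls (interaction -5.38 ± 1.03, edgeR adjusted p = 0.0300). That call was lost without control 19 (edgeR adjusted p = 0.155), control 9 (0.0635) or pulsed 20 (0.177). Fgf14, an intracellular FGF that binds sodium channels, had the lowest D12 estimate of the 76. Its counts at D6 were 281 in pulsed cells and 3 in controls, and at D12 it measured 1.77 and 0.318 CPM in controls and 0.114 and 0.134 CPM in pulsed cells. The order of the groups had turned over, with an interaction of -9.40 ± 1.51 (edgeR adjusted p = 0.00864), which did not pass without control 9 (0.0793), pulsed 10 (0.0648) or pulsed 20 (0.0862).

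By their medians, genes called at D6 carried little of that response at D12. The 449 genes called higher at D6 had a median D12 effect of 0.05, and 22.3% of them were higher in both pulsed libraries than in both controls, against 17.9% of all genes. The 90th percentile of their effects was 1.36, against 0.63 over all genes, so a part of them kept a higher estimate. The 167 genes called lower at D6 (1.12% of all) had a median of -0.14, with 70.7% below 0, and 32.9% were lower in both pulsed libraries, against 16.4% of all genes. This second median was -0.23 without pulsed 10 and -0.057 without pulsed 20. Between D8 and D12 no gene's effect differed by edgeR (0%), DESeq2 or limma-voom, and 355 genes (2.38%) had an unadjusted edgeR p under 0.05.

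The lists of chamber patterning and second heart field genes were the cardiac lists with a median above 0, and their medians were higher for pulsed 20 than for pulsed 10. The chamber patterning median was 0.0916 and 0.222 for pulsed 10 over controls 9 and 19, and 0.839 and 0.889 for pulsed 20. The second heart field median was 0.0336 and 0.451 for pulsed 10, and 0.953 and 0.880 for pulsed 20. Of 16 chamber patterning factors none was called, 8 were higher in both pulsed libraries and 2 lower in both, where 17.9% and 16.4% of all genes were, and the median was 0.52. Besides Tbx2, Irx3 and Irx5, Nr2f1, a nuclear receptor of atrial identity, measured 16.2 and 6.26 CPM in controls and 16.5 and 55.4 CPM in pulsed cells. Irx4, a ventricular factor, measured 5.86 and 8.80 CPM in controls, 6.30 CPM in pulsed 10 and 1.21 CPM in pulsed 20. The second heart field list had 21 tested genes with a median of 0.52. None was called by the quasi-likelihood test, 2 were called by DESeq2 and 1 by the exact test. In both pulsed libraries 10 were higher and 2 lower, beside the same 17.9% and 16.4%. Isl1, the LIM factor that marks this progenitor field, measured 9.75 and 12.5 CPM in controls and 16.5 and 23.1 CPM in pulsed cells. Tbx1, a T-box factor of the pharyngeal region, measured 0.202 and 0.0530 CPM against 0.511 and 1.34 CPM. Eya2, a relative of Eya1, was high in pulsed 20 only, at 6.66 CPM against 0.227 CPM in pulsed 10 and 0.0505 and 0.265 CPM in controls. Meis2, the most abundant gene of the list, overlapped at 354 and 240 against 254 and 337 CPM.

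Factors that run the working cardiomyocyte programme had a median below 0, also with no call. Of 16 cardiac transcription factors none was higher in both pulsed libraries (17.9% of all genes), 8 were lower in both (16.4% of all genes) and the median was -0.39. That median was -0.115 for pulsed 10 over control 9 and -0.883 for pulsed 20 over control 19. Tbx5, which drives atrial and left ventricular genes, measured 28.7 and 31.1 CPM in controls and 18.003 and 6.44 CPM in pulsed cells. Gata4, a zinc finger activator of cardiac genes, measured 212 and 231 CPM against 176 and 83.4 CPM. Tbx20 measured 232 and 357 CPM against 218 and 104 CPM. In all 3 pulsed 20 was lowest and pulsed 10 lay nearer the controls. Nkx2-5, the homeobox factor of early heart muscle, overlapped, with the controls at 17.3 and 30.7 CPM inside the pulsed values of 33.4 and 15.1 CPM. Ankrd1, a stress-responsive cofactor and the most abundant of the list, measured 557 and 1365 CPM against 601 and 311 CPM, so that pulsed 20 was below both controls and pulsed 10 above control 9.

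The contractile genes themselves varied as much between controls as between groups. Every tested thick filament gene (14) and Z-disc gene (16) and all but 1 of 14 thin filament genes had an estimate below 0, where 49.0% of all genes had one above 0, with medians of -0.76, -0.64 and -0.55. Few were lower in both pulsed libraries, 3, 2 and 1 genes, where 16.4% of all genes were. The alpha myosin heavy chain Myh6 measured 1954 and 4670 CPM in controls and 2347 and 1098 CPM in pulsed cells. Cardiac actin, Actc1, measured 1000 and 2719 CPM against 1336 and 620 CPM. For both, pulsed 10 was above control 9. The thick filament median was 0.38 for pulsed 10 over control 9 and -2.07 for pulsed 20 over control 19, so its sign rested on which libraries were set against each other. Flnc, the Z-disc filamin, stood at 438 and 655 against 496 and 387 CPM. Myom2, an M-band protein, was the only thick filament gene with an unadjusted edgeR p under 0.05 (0.0256), at 48.0 and 249.6 CPM in controls and 42.6 and 45.5 CPM in pulsed cells. Control 19 was far above the other 3 libraries.

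Ratios of 2 genes within a library were compared next. In mixed cultures such ratios can still shift with the cells present, which was not tested. On the log2 scale Tnni3 over Tnni1, adult over fetal cardiac troponin I, was -1.09 and -1.22 in controls and -1.55 and -1.58 in pulsed cells, which did not overlap. Myh6 over Myh7 was 3.07 and 2.19 in controls and 2.75 and 2.19 in pulsed cells. Myl2 over Myl7, ventricular over atrial light chain, was -0.74 and -1.29 against -1.28 and -1.80. Atp2a2 over Pln, the calcium pump over its inhibitor, was 3.44 and 3.24 against 3.30 and 3.04, and overlapped as the myosin and light chain ratios did.

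Among excitability genes, both subunits of a vascular potassium channel were higher in both pulsed libraries. Of 21 ion channel and gap junction genes, with a median of -0.41, none was called. In both pulsed libraries 6 were higher (17.9% of all genes) and 3 lower (16.4%). Kcnj8 and Abcc9, the pore and the regulatory subunit of the ATP-sensitive potassium channel of smooth muscle and pericytes, were measured at low to moderate levels. Kcnj8 measured 0.909 and 2.12 CPM against 3.69 and 29.5 CPM, and Abcc9 13.5 and 15.5 CPM against 36.5 and 100.3 CPM. Both subunits were highest in pulsed 20, and for neither did the groups overlap. The gap junction gene Gja1 was level at 294 and 381 against 324 and 312 CPM. Calcium handling genes had a median of -0.53 over 22 genes with 1 higher and 3 lower in both, beside the same 17.9% and 16.4%. The pump Atp2a2 stood at 1716 and 3245 against 1903 and 1000 CPM. The natriuretic peptide and hormone list had a median of -0.35 over 15 genes with 1 higher and 5 lower in both, beside these same shares. Nppa, the atrial peptide, measured 623 and 549 CPM in controls, 414 CPM in pulsed 10 and 122 CPM in pulsed 20, and Corin, the protease that activates it, 89.7 and 105 CPM against 58.3 and 27.3 CPM. Neither overlapped.

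**Figure D5:**
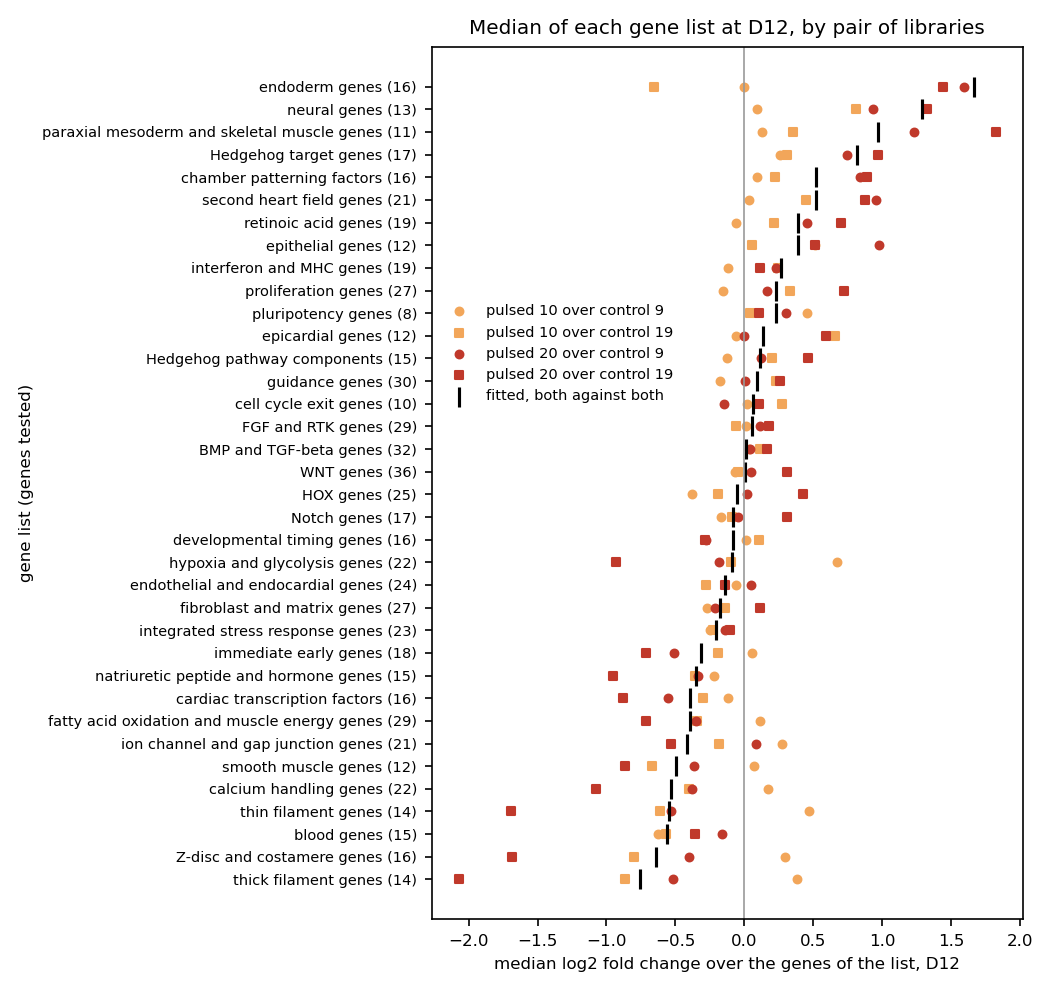
Median log2 fold change at D12 over the tested genes of each list, with 1 coloured point for each of the 4 pairs of a pulsed and a control library and a black tick for the fit of both against both. The points of the filament lists lie on both sides of 0, while those of the chamber patterning and second heart field lists lie right of 0.

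Fatty acid oxidation and muscle energy genes had a median of -0.39, with 28 of 29 below 0, where 49.0% of all genes were above 0. In both pulsed libraries 10 were lower (16.4% of all genes) and none higher (17.9%). The median was 0.113 for pulsed 10 over control 9 and -0.713 for pulsed 20 over control 19, so its sign depended on the pair. The 1 gene with an unadjusted edgeR p under 0.05 (0.0361) was Acadl, a long-chain acyl-CoA dehydrogenase, at 177 and 191 CPM in controls and 150 and 110 CPM in pulsed cells. Lpl, lipoprotein lipase, measured 662 and 673 CPM against 590 and 414 CPM. All 27 proliferation genes had an estimate above 0 (49.0% of all genes), with a median of 0.23 and 7 higher in both (17.9% of all genes). Their summed level was 2026 and 1349 CPM in controls and 1719 and 2260 CPM in pulsed cells, so the groups overlapped. Top2a, the mitotic topoisomerase, measured 390 and 263 CPM against 332 and 434 CPM, and the replication helicase subunit Mcm6 60.8 and 43.5 CPM against 63.5 and 81.5 CPM.

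The lists of paraxial mesoderm and neural genes had medians above 0, which were higher for pulsed 20 than for pulsed 10. The list of paraxial mesoderm and skeletal muscle genes had 11 tested members of 23 and a median of 0.97. That median was 0.132 and 0.352 for pulsed 10 over controls 9 and 19, and 1.23 and 1.83 for pulsed 20. None of its genes was called by the quasi-likelihood test and 1 was called by the exact test. In both pulsed libraries 6 were higher (17.9% of all genes) and 2 lower (16.4%). For 5 the unadjusted edgeR p was under 0.05, where 633 of all genes (4.25%) had this in that direction. The count filter dropped 12 members, and Myog passed it through the pulsed D12 libraries alone. The list's counts and median are therefore no support for a rise. Meox1, a somite homeobox factor, measured 13.7 and 13.1 CPM in controls, 16.8 CPM in pulsed 10 and 69.6 CPM in pulsed 20. Meox2, its relative, measured 1.01 and 0.530 CPM against 1.36 and 12.02 CPM. Nkx3-2, a factor of the sclerotome, had no count in controls and 4 and 80 counts in pulsed 10 and 20, at least 27.1-fold higher over the groups. For these 3 genes pulsed 10 lay near the controls, unlike for Myog. The count filter also dropped 10 of 23 neural genes. The 13 tested neural genes had a median of 1.29, with 8 higher in both pulsed libraries (17.9% of all genes) and 1 lower (16.4%). That median was 0.0917 and 0.812 for pulsed 10 over controls 9 and 19, and 0.934 and 1.33 for pulsed 20. Sox11, an early neural and mesenchymal factor and the most abundant, measured 162 and 102 CPM against 180 and 305 CPM, and Nefm, a neurofilament subunit, 0.152 and 0.0530 CPM against 1.08 and 4.34 CPM. The 5 defining neural markers summed to 18.1 and 7.27 CPM in controls and 18.9 and 15.4 CPM in pulsed cells, none of them at 0 in all 4 libraries, and these sums overlapped; their part in the result was not tested.

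Endoderm, epicardium, endothelium and blood were followed as possible other cell types. The 16 endoderm genes had a median of 1.67, which became 0.84 with genes lacking a count in 1 group set to their bound or left out. None was higher in both pulsed libraries (17.9% of all genes) and 2 were lower (16.4%). The 5 endoderm markers summed to 8.94 and 11.9 CPM in controls, 8.46 CPM in pulsed 10 and 28.5 CPM in pulsed 20. Hhex, the most abundant of the list, measured 13.3 and 11.6 CPM against 9.77 and 8.72 CPM. Epicardial genes had a median of 0.14 over 12, with Sema3d and 1 other gene higher in both (17.9% of all genes). The 5 epicardial markers summed to 96.2 and 60.5 CPM in controls, 73.7 CPM in pulsed 10 and 158.9 CPM in pulsed 20. Tcf21, a factor of epicardium-derived fibroblasts, measured 23.2 and 13.6 CPM against 23.1 and 82.0 CPM. In each of these lists pulsed 20 stood highest in the marker sum, and the part of such cells in the results was not tested. Endothelial genes had a median of -0.14 over 24, with Eng, an endothelial TGF-beta co-receptor, at 424 and 477 against 406 and 488 CPM. Blood genes had a median of -0.56 over 15, with 8 lower in both pulsed libraries (16.4% of all genes) and 3 higher (17.9%). Tyrobp, a signalling adaptor of macrophages, measured 2.93 and 2.02 CPM in controls and 0.568 and 0.939 CPM in pulsed cells.

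Of 27 fibroblast and matrix genes none was higher in both pulsed libraries (17.9% of all genes) and 6 were lower (16.4%), with a median of -0.18. Col3a1, the most abundant of them, stood at 8637 and 7309 against 5820 and 6462 CPM. Smooth muscle genes had a median of -0.50 over 12, with Acta2 at 1177 and 2614 against 1382 and 670 CPM. The authors' deposited table holds other matrix and mesenchymal genes, named here after their values were seen. It lists 74 genes at D12, 69 higher and 5 lower, and the authors' full table has 78 of 14917 genes at an adjusted p under 0.05 (0.523%; 0.489% higher and 0.0335% lower). Of the 71 found in the tested genes, all had the same direction in the present fit and groups that did not overlap, 60 had an unadjusted edgeR p under 0.05, and 41 were called by the exact test on the 4 D12 libraries alone, which called 54 higher (0.399%) and 2 lower (0.0148%). These share 1 set of libraries and are no independent support. Of the 67 higher genes, 62 were higher in pulsed 20 than in pulsed 10.

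From that list, cartilage collagen Col2a1 measured 10.4 and 12.7 CPM in controls and 74.2 and 105 CPM in pulsed cells, and has a log2 fold change of 3.12 and an adjusted p of 3.54e-22 in the authors' deposited table. The edgeR fit here gave 2.96 ± 1.32 (adjusted p = 0.855). Both pulsed libraries were several times above both controls. Unpulsed libraries of 1 day also differed widely for Col2a1. They ranged from 15.2 to 309 CPM at D5, 110 to 573 CPM at D6 and 75.8 to 251 CPM at D8. Nkx2-1, a homeobox factor of lung, thyroid and forebrain, measured 0.0505 and 0.212 CPM against 5.34 and 2.50 CPM and was higher in pulsed 10 than in pulsed 20. Scx, the tendon and valve factor scleraxis, measured 8.99 and 6.79 CPM against 18.6 and 25.3 CPM. Prrx1, a mesenchymal homeobox factor, measured 29.4 and 25.2 CPM against 48.1 and 63.5 CPM. For none of these 3 factors did the groups overlap, as for all 71 genes of that list found in the tested genes. Ebf2 and Ebf3, relatives expressed in mesenchymal progenitors, were led by pulsed 20, Ebf2 at 3.64 and 2.55 against 7.38 and 41.7 CPM and Ebf3 at 13.2 and 10.6 against 21.5 and 69.3 CPM. So was Fap, the fibroblast activation protease, at 0.960 and 0.265 against 3.24 and 14.9 CPM, and Col15a1, a basement membrane collagen, at 50.5 and 70.4 against 111 and 340 CPM. Spp1, the matrix protein osteopontin, measured 2.27 and 2.76 CPM against 10.6 and 16.4 CPM. The 5 lower genes of the authors' list include Corin and Tyrobp, given above.

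No gene of the signalling lists that follow was called by the quasi-likelihood test, and DESeq2 called 1, Sema3d of the guidance list. The retinoic acid list had a median of 0.39 over 19 genes. That median was -0.06 and 0.219 for pulsed 10 over controls 9 and 19, and 0.454 and 0.705 for pulsed 20. Of the 19 genes, 6 were higher in both pulsed libraries (17.9% of all genes) and 2 lower (16.4%), and 3 had an unadjusted edgeR p under 0.05. These were Crabp1, a retinoid-binding protein, at 3.64 and 2.33 against 11.4 and 14.3 CPM, the retinoic acid synthase Aldh1a3 at 0.253 and 0.530 against 1.08 and 2.77 CPM, and the degrading enzyme Cyp26a1 at 0.101 and 0.159 against 1.76 and 4.56 CPM. These 3 genes were picked by that p, which 4.25% of all genes had with a higher estimate. In the whole list 8 genes had an estimate below 0. Of 32 BMP and TGF-beta genes (median 0.02) 8 were higher and 3 lower in both, where 17.9% and 16.4% of all genes were. Bmp5, a ligand, measured 8.39 and 9.28 CPM against 16.2 and 23.6 CPM, and Grem1, a secreted BMP inhibitor, 0.0505 and 0.371 CPM against 1.25 and 5.18 CPM, while the receptor Bmpr1a stood at 457 and 432 against 439 and 383 CPM. Guidance genes had a median of 0.10 over 30; Nrp2, a semaphorin co-receptor, measured 159 and 169 CPM against 235 and 434 CPM, and Unc5b, a netrin receptor, 1101 and 1081 CPM against 1023 and 866 CPM.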

How the data were processed

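Polyadenylated RNA was read from 1 end for 50 bases, per the labels' protocols. The authors deposited raw read counts per gene symbol for 18 libraries, and their own D12 tables of log2 fold changes and p-values; which aligner, counter, strand setting and build they used is not given in the sources used here, so overlapping genes could share reads. Columns name the group and a library number but not the sample, so libraries were assigned to groups only. Counts of all 18 libraries were fitted in edgeR 4.0.16 (R 4.3.3) with 1 coefficient for each of 7 groups, TMM scaling, robust quasi-likelihood dispersion and a filter at a minimum count of 10, which kept 14892 of 23337 genes. Benjamini-Hochberg adjustment ran over all of them, with a threshold of 0.05. DESeq2 1.42.0, limma 3.58.1 (voom), edgeR's exact test, other scaling, no filter, fits on the days compared, a block and leaving out each library were alternatives. The code of the test was checked on simulated data, which is no support for any result here. The members and all gene lists were chosen with earlier results of these data known. Of 37 lists, 36 had tested genes; the list of mitochondrially encoded genes had none. Text names Gli1, the called genes or, for a list without one, its most abundant gene at D12, and other genes chosen after their values were seen. A few genes are not reported here.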

Additional observations from a re-analysis of the deposited data

Results flagged for a closer look

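The test of the difference between the D12 and the D6 effect of the pulse, edgeR's interaction with Benjamini-Hochberg adjustment, set apart 14 genes with a higher and 76 with a lower D12 effect. On the log2 scale the difference was 5.30 for Tbx2, 5.89 for Trpm3, 4.68 for Moxd1, 3.75 for Spock3, 2.77 for Irx3, 2.37 for Lrrn2, 2.37 for 4930513N10Rik, 1.86 for 2810030E01Rik, 1.85 for Rgag4, 1.39 for Crip1, 1.38 for Spry2, 1.07 for Amot, 1.03 for Tgfb2 and 0.98 for Fam122b. Among the genes named above it was -5.84 for Gli1, -4.36 for Ptch1, -5.11 for Foxl1, -3.12 for Hprt, -5.38 for Casq2, -4.46 for Kcnn3 and -9.40 for Fgf14.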

How the results depend on the processing

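At D12 the quasi-likelihood count of 0 called genes was also 0 with other scaling, no filter, D12 libraries alone and the replicate block of adjacent library numbers. It was 14 with DESeq2, 19 with the exact test and 1 with limma-voom, all higher, and 56 (54 higher, 2 lower) with the exact test on the 4 libraries, an alternative chosen after seeing the data. Leaving out 1 library gave 0 to 258 over these tools (0 to 164 higher, 0 to 94 lower). Of the D12 minus D6 differences, 90 were called (14 higher, 76 lower), 208 (61 and 147) from the days compared alone, 281 (83 and 198) with DESeq2, 126 (15 and 111) with voom and 74 (10 and 64) with the replicate block; 12 to 52 (2 to 12 and 10 to 45) with 1 library left out. With that block the difference was no longer called for Gli1, Hprt, Foxl1, Casq2 and 9 of the 14 higher genes, and with voom not for Gli1, Foxl1 and Moxd1 (adjusted p = 0.0999, 0.215 and 0.135). The libraries share only adjacent numbers. Crossing the D12 pairs, chosen after seeing the data because the pair differences correlated at -0.231, gave 0 D12 calls and 107 differences (28 and 79). The median D12 effect of genes called lower at D6 ranged from -0.24 to -0.0561 with 1 library left out.

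Signs turned for effects near 0. Meis2 was 0.00157 with no filter, 0.00592 with the replicate block, 0.0036 from the days compared, 0.00608 with voom, 0.00356 with the exact test on 4 libraries and 0.00571 with crossed pairs. Krt18 was 0.00251 with no filter and 5.856e-04 with that exact test. Nkx2-5 was -0.038 with the replicate block, -0.0355 with crossed pairs and -0.0786 with voom. With 1 library left out, effects ranged from -0.96 to 0.25 for Aldoa, -0.26 to 0.0369 for Ccnd3, -0.17 to 0.20 for Cdon, -0.15 to 0.12 for Eng, -0.048 to 0.13 for Fam122b, -0.57 to 0.0109 for Flnc, -0.10 to 5.21 for Foxf2, -0.27 to 0.11 for Gja1, -0.11 to 0.39 for Gli1, -0.17 to 0.25 for Hoxb2, -0.86 to 0.83 for Hprt, -0.00821 to 0.12 for Klf4, -0.50 to 0.36 for Krt18, -0.27 to 0.30 for Meis2, -0.67 to 0.48 for Nkx2-5, -0.0957 to 0.30 for Spry2, -0.27 to 0.0311 for Tgfb2 and -0.0313 to 0.54 for Top2a. The cause was not tested. With 2 libraries a group and a lone library assumed to vary like the other groups, genes of a few counts carry wide counting intervals.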

Other observations

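None of the genes of the lists given here was called at D12 by edgeR's quasi-likelihood test. WNT genes had a median log2 effect of 0.00 over 36 genes with 8 higher and 5 lower in both pulsed libraries, where 17.9% and 16.4% of all genes were; Sfrp1, a secreted WNT inhibitor and the most abundant, stood at 1119 and 739 CPM in controls and 736 and 718 CPM in pulsed cells. FGF and receptor tyrosine kinase genes had a median of 0.06 over 29, with Igf1r, the IGF receptor, at 775 and 730 against 648 and 558 CPM. Notch genes had a median of -0.08 over 17, with 2 higher and 5 lower in both, beside the same 17.9% and 16.4%. Jag1, a Notch ligand, measured 415 and 325 CPM in controls and 268 and 174 CPM in pulsed cells, which did not overlap. HOX genes had a median of -0.05 over 25, with Hoxb2 at 27.8 and 22.4 against 22.4 and 29.8 CPM.

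Integrated stress response genes had a median of -0.21 over 23, with 10 lower in both pulsed libraries and 1 higher, where 16.4% and 17.9% of all genes were; Atf4, the factor that drives this response, measured 285 and 306 CPM against 229 and 242 CPM. Immediate early genes had a median of -0.32 over 18, with Zfp36, an mRNA decay factor, at 134 and 152 against 108 and 70.4 CPM. Hypoxia and glycolysis genes had a median of -0.09 over 22 and no gene whose groups did not overlap; the glycolytic enzyme Aldoa measured 1151 and 2211 CPM against 1873 and 867 CPM. Interferon and MHC genes had a median of 0.27 over 19, with B2m at 204 and 198 against 209 and 205 CPM. Developmental timing genes had a median of -0.08 over 16, led by the growth factor Igf2 at 19530 and 22547 against 19940 and 16452 CPM. The medians of pluripotency, epithelial and cell cycle exit genes were 0.23, 0.39 and 0.06. Their most abundant genes overlapped between groups, Klf4 at 16.01 and 17.5 against 17.7 and 17.2 CPM, Krt18 at 37.9 and 46.4 against 54.1 and 29.9 CPM, and Ccnd3 at 627 and 655 against 657 and 538 CPM. Runx1, of the blood list, measured 5.41 and 9.02 CPM against 10.1 and 11.5 CPM, and Ccnd2, a Hedgehog target that drives the cell cycle, 474 and 480 CPM against 609 and 606 CPM.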
